A study of Mus musculus with 4 samples.

Results

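Cell cycle genes were examined across the immune cells of 20967 mouse melanomas as a set of 47 named genes of the 32285 in the expression table. The members were listed by gene name for their part in DNA replication or mitosis, with earlier results of these data known. By role they comprise 11 genes of replication licensing and the replication fork, 5 of nucleotide supply, 2 of chromatin at the fork, 5 cyclin or kinase genes, 5 of chromosome structure, 8 of the centromere and spindle checkpoint, 9 of the spindle and cytokinesis and 2 of mitotic exit. The study profiled live CD45+ leukocytes by single cell RNA sequencing from 5 control tumors (3803 cells) and 5 tumors treated with clobetasol propionate, a potent glucocorticoid (305 cells). All tumors were grown in wild type C57BL/6 mice from the 20967 line, which was generated from mice of the genotype Nras+LSL-G12D;Tyr::CreERT2+/o, so the mutant alleles lie in the tumor cells and not in the leukocytes measured here. Both groups share that single line. The tumors were analyzed 4 days after treatment, and mouse age is not given in the sources used here. Each tumor carried its own hashtag, a barcoded antibody, and the 5 tumors of a group were pooled into 1 channel, with 17100 control and 3500 clobetasol cells loaded. Treatment and channel therefore cannot be told apart in any comparison below.

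A dividing cell first licenses its replication origins by loading the MCM helicase, then copies its DNA in S phase with nucleotides made for that purpose, and then condenses, aligns and separates its chromosomes in mitosis. Genes of licensing and S phase are switched on together by E2F factors, whereas genes of G2 and mitosis are switched on later, in large part through the CHR element and neighboring CCAAT boxes. In tumors, T cells that meet antigen can divide locally, whereas neutrophils and eosinophils leave the marrow after their last division.

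Values are UMIs, the molecules counted by their 3′ ends, per 10000 UMIs of a cell. A 3′ count takes each molecule once whatever its length, so levels were compared between genes without a length correction. Capture efficiency still differs between genes, and reads in introns were counted as well, so these comparisons are approximate. The tumors held 2735708 to 9869474 UMIs in control and 139195 to 1235264 in clobetasol, from 347 to 1250 and 18 to 111 cells. The median cell held 7440 UMIs in control and 9163 in clobetasol, and no cell barcode was found in both channels. Cell types are the 16 clusters of the authors' annotation.

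The promoters of the members show the letters by which the early and late genes are told apart. RefSeq windows of 300 bases, from 250 before to 50 after the start site (GRCm38.p6), were found for 39 of the 47 members. The motifs searched were the E2F letters TTCCCGC or TTGGCGC, the CHR letters TTTGAA and the CCAAT box CCAAT, each on both strands. The reverse form of TTGGCGC ends in CCAA, so it can overlap a CCAAT box. The late members shown here are Mki67 and Top2a, whose UMIs define the shares reported below, and Cdc20 and Ccnb2, a mitotic exit gene and a mitotic cyclin. Capitals mark E2F, CHR and CCAAT letters in either orientation.
Mki67 promoter, chr7:135716330-135716629, minus strand: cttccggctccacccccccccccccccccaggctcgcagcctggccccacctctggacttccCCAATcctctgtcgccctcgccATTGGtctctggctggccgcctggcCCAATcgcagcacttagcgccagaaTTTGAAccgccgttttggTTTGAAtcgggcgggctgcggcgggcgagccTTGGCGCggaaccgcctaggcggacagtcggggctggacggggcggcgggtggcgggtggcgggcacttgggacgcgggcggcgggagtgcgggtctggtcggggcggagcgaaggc
Top2a promoter, chr11:99024140-99024439, minus strand: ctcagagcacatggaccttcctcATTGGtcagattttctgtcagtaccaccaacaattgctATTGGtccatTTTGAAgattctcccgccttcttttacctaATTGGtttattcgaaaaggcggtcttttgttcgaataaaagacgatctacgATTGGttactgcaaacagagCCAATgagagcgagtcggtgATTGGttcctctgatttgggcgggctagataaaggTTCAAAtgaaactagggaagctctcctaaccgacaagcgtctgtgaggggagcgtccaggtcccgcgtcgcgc
Cdc20 promoter, chr4:118437294-118437593, minus strand: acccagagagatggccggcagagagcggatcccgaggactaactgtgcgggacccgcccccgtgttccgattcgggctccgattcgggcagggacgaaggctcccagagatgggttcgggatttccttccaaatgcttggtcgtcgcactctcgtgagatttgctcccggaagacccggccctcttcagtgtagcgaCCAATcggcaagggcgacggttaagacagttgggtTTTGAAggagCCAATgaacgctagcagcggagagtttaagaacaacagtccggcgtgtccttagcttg
Ccnb2 promoter, chr9:70421505-70421804, minus strand: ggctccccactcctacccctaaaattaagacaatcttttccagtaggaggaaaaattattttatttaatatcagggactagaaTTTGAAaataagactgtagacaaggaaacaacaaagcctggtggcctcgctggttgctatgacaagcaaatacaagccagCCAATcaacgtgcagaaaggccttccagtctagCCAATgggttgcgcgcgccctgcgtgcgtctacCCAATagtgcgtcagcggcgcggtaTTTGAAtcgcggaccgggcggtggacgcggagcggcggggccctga

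The early members shown are Pclaf, a partner of PCNA at the fork and the highest of the fork genes in CD8 4, and Mcm6, a subunit of the MCM helicase.
Pclaf promoter, chr9:65890073-65890372, plus strand: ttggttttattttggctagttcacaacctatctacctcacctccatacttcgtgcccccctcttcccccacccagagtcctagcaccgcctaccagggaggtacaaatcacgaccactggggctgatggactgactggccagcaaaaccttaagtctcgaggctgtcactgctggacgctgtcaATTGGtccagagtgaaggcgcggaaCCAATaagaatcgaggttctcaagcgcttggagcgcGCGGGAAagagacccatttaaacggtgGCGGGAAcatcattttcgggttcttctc
Mcm6 promoter, chr1:128359656-128359955, minus strand: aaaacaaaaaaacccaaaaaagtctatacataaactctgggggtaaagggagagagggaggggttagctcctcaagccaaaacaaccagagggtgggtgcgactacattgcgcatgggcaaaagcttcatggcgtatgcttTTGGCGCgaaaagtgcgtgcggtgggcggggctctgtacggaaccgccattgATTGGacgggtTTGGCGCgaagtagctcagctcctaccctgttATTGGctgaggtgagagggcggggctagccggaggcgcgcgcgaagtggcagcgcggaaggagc

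The CHR letters were present in 18 of 23 late members (78.3%) and in 2 of 16 early members (12.5%), against 18.1% of the 27025 genes in the promoter table. The E2F letters ran the other way, with 9 of 16 early members (56.3%), 3 of 23 late members (13.0%) and 6.93% of all genes. A CCAAT box was common to both sets, at 11 of 16 early (68.8%) and 20 of 23 late members (87.0%), against 37.9% of all genes. CHR and CCAAT letters stood in the same window in 17 of 23 late members (73.9%) and 7.12% of all genes. Mki67 held both kinds, with 2 CHR and 3 CCAAT matches and 1 E2F match, whereas Top2a held 2 CHR and 6 CCAAT matches and none of the E2F letters searched. These matches describe the letters in the windows and do not show binding.

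All 47 members reached their highest control level in cluster CD8 4, a cluster of 30 cells. The clusters were built from these same cells, so the order of the clusters is given as a description with no test. Summed over the members, CD8 4 held 141 UMIs per 10000 (105 to 177 in the 4 tumors with at least 3 of its cells), whereas the other 15 clusters held between 4.77 in DC 1 and 11.5 in CD4. CD8 4 made up 0.789% of control cells and carried 18.8% of all control UMIs of the members. The members took 1.47% of the UMIs of CD8 4 and 0.0776% of the control UMIs outside it.

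**Figure D1:**
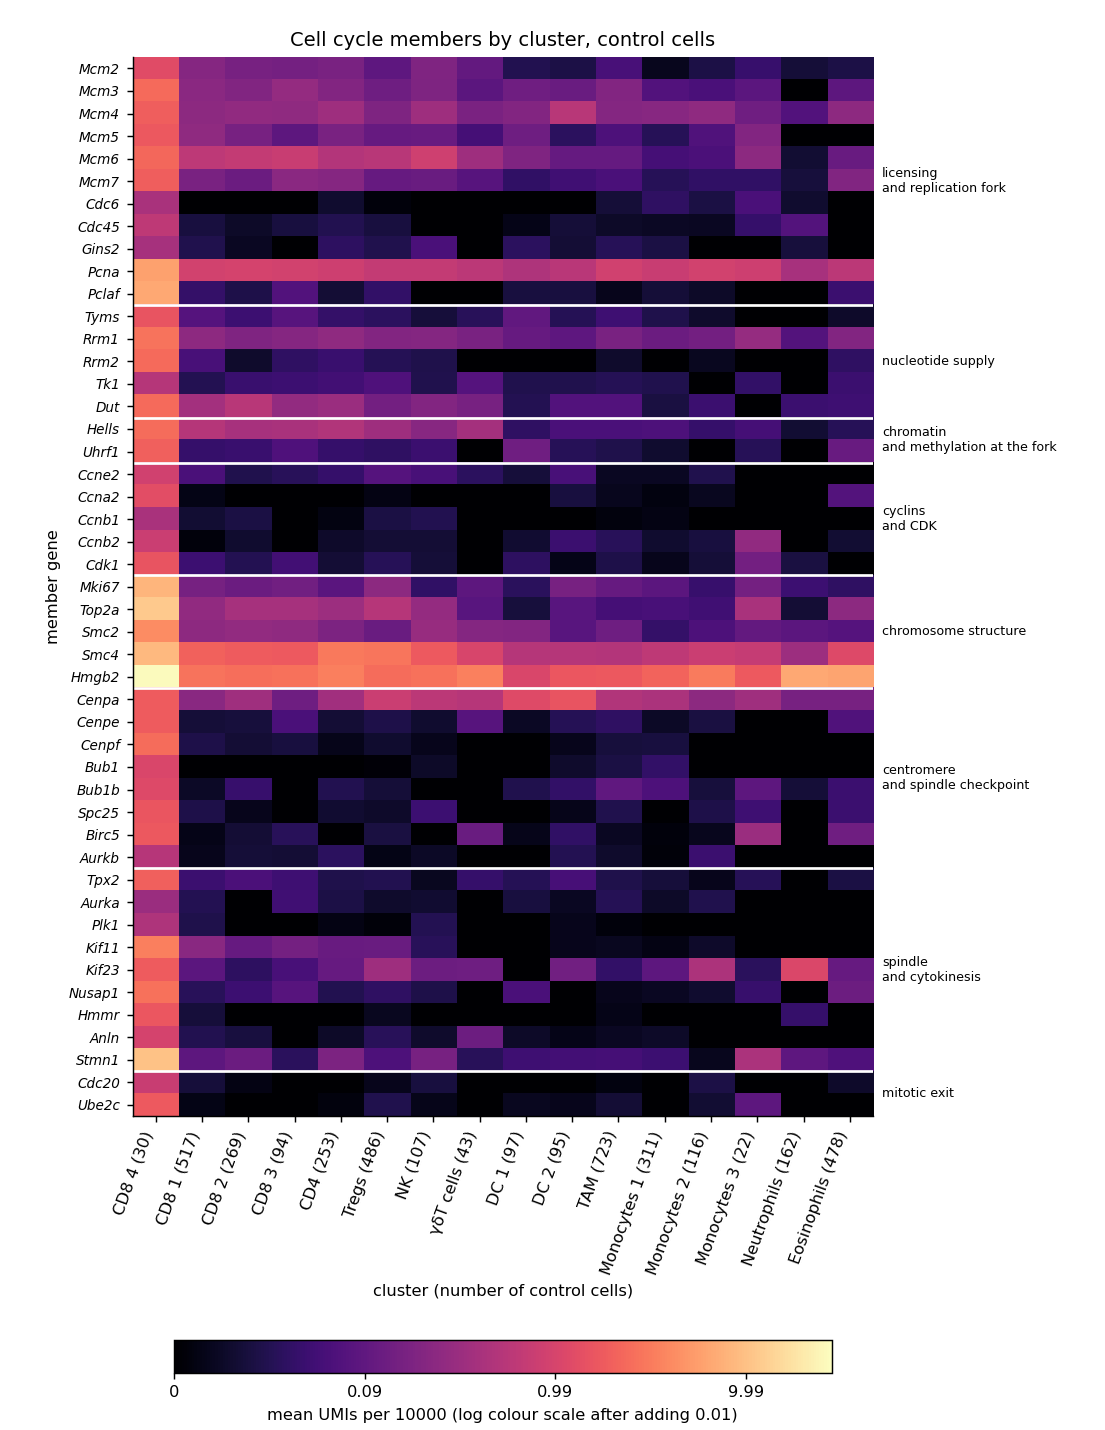
Mean UMIs per 10000 of the 47 members (rows, grouped by role) in the 16 clusters of control cells (columns, with the number of cells), on a log color scale after adding 0.01. The CD8 4 column is the brightest in every row, and Hmgb2, Smc4 and Pcna are seen in all other clusters as well.

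The distance to the next cluster set the members apart. For 26 members the CD8 4 level was more than 10 times that of the next cluster, for 17 it was between 3 and 10 times, and for 4 it was at most 3 times. Cenpf, a kinetochore protein of late G2 and mitosis, was the most restricted at 2.48 UMIs per 10000 in CD8 4 and 0.0179 in the next cluster, CD8 1. Pclaf followed with 6.66 against 0.0655 in CD8 3. The 4 least restricted members were Cenpa, the centromeric histone H3 (1.17 times DC 2), Kif23, a kinesin of the midbody (1.67 times neutrophils), Mcm6 (2.69 times NK) and Smc4, a condensin subunit (2.84 times CD4).

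Among the genes of licensing and the fork, which summed to 25.4 UMIs per 10000 in CD8 4, Pclaf was the highest at 6.66 and Gins2, a part of the GINS complex of the active helicase, the lowest at 0.388. Pclaf read 5.73, 3.67, 8.20, 8.47 and 4.99 UMIs per 10000 in control tumors 1 to 5. The 6 MCM genes lay close together, from 1.25 for Mcm2 to 2.36 for Mcm3. Pcna, the sliding clamp of the polymerases, read 5.88 in CD8 4 and was also found in every other cluster, from 0.396 in neutrophils to 0.958 in CD8 2. Of the nucleotide supply genes, Rrm1, the large subunit of ribonucleotide reductase, was the highest at 2.79 and Tk1, thymidine kinase, the lowest at 0.516. The small subunit Rrm2, whose level follows S phase, was the more restricted of the reductase pair, at 45.1 times the next cluster against 10.1 times for Rrm1. Both genes of chromatin at the fork were similar in level, with 2.48 for Hells, a chromatin remodeler, and 2.00 for Uhrf1, which guides maintenance methylation, but Hells read up to 0.519 elsewhere (CD8 1) and Uhrf1 up to 0.127 (DC 1).

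The cyclin and kinase genes were low throughout and summed to 4.92 UMIs per 10000 in CD8 4. Cdk1, the kinase of mitotic entry, was the highest at 1.56 and Ccnb1, its main mitotic cyclin, the lowest at 0.404. Ccna2, the cyclin of S phase and G2, was the most concentrated of them, with 79.5% of its control UMIs in CD8 4. Ccnb2 had 32.2% there and Ccne2, the cyclin of S phase entry, 31.7%.

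The genes of chromosome structure were the most abundant and summed to 59.1 UMIs per 10000 in CD8 4. Hmgb2, a DNA-bending chromatin protein, was the highest at 26.5 and Smc2, a condensin subunit, the lowest at 4.13. Mki67, which coats mitotic chromosomes and serves as the standard proliferation marker, read 11.7, 6.06, 7.60, 6.26 and 12.2 UMIs per 10000 in CD8 4 of control tumors 1 to 5. Top2a, the topoisomerase that untangles sister chromatids, read 18.6, 6.58, 12.4, 3.53 and 13.6. Tumors 1 and 5 were thus the highest for both genes, although tumors 4 and 5 held only 2 and 3 of the cells. The gene lies at chr7:135689784-135716361 on the minus strand for Mki67 and at chr11:98992943-99024189 on the minus strand for Top2a (mm10, whole gene).

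The share of each gene's control UMIs that fell in CD8 4 was 46.0% for Mki67 and 46.1% for Top2a, so the larger part of either gene lay in cells outside the cluster. Regulatory T cells came next for both, with 0.231 UMIs per 10000 of Mki67 (0.111 to 0.290 over 5 tumors) and 0.527 of Top2a (0.372 to 0.704). Hmgb2 was different in kind, with 11.9% of its control UMIs in CD8 4. Its next highest levels were in neutrophils at 6.62 (5.44 to 8.28 over 5 tumors) and eosinophils at 6.33 (5.49 to 6.94), whose ranges overlapped, and both stood above the 3.35 of CD4. Smc4 likewise read 3.05 in CD4 and 2.91 in regulatory T cells, and 8.07% of its UMIs were in CD8 4.

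Among the centromere and checkpoint genes, Cenpf was the highest in CD8 4 at 2.48 UMIs per 10000 and Aurkb, the kinase of the chromosomal passenger complex, the lowest at 0.533. Cenpa did not follow its group. It read 1.78 in CD8 4, 1.52 in DC 2 (0.714 to 2.19 over 5 tumors) and 1.19 in DC 1 (0.497 to 2.13), and these ranges overlapped that of CD8 4 (0.555 to 4.56 over 4 tumors). Only 3.78% of its control UMIs were in CD8 4. In the spindle and cytokinesis group Stmn1, which destabilizes microtubules, was the highest at 10.1 and Aurka, a centrosomal kinase, the lowest at 0.305. Stmn1 read 14.4, 6.62, 10.2, 8.91 and 11.7 in control tumors 1 to 5, was found in all 30 cells of CD8 4, and had 63.6% of its control UMIs there. Kif23 read 1.83 in CD8 4 and 1.09 in neutrophils (0.616 to 1.85 over 5 tumors). Hmmr, a spindle assembly factor, had 78.5% of its control UMIs in CD8 4. Of the mitotic exit genes, both of the anaphase-promoting complex, Ube2c, its ubiquitin-conjugating enzyme, read 1.74 and Cdc20, its activator, 0.740.

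The 30 cells of CD8 4 all came from control tumors, with 4, 6, 15, 2 and 3 cells in tumors 1 to 5. They were deep, with a median of 12778.5 UMIs (3338 to 24387) against 6826 in control clusters CD8 1 to CD8 3. All 30 held a UMI of Cd3e, a subunit of the T cell receptor complex. The label CD8 fitted 21 of them (70.0%), which held Cd8a or Cd8b1 and no Foxp3 UMI. A further 5 cells (16.7%), from 3 tumors, held Foxp3, the factor that defines regulatory T cells, and no Cd8a or Cd8b1, 2 held both and 2 neither. Those 5 cells held 34 to 219 UMIs each of Ikzf2, a factor of regulatory T cells, and their median depth was 21378 UMIs. By comparison, Foxp3 was found in 4 of 517 cells of CD8 1 and in 377 of 486 cells of the regulatory T cell cluster. The 3 markers of regulatory T cells summed to 20.7 UMIs per 10000 in CD8 4 (1.498 to 65.8 over tumors). All 3 monocyte markers were found, at a summed 13.2 (9.88 to 33.1 over tumors), of which Ly6c2 and Ccr2, both also known in activated T cells, gave 7.12 and 5.22. Fewer UMIs came from the other lists, with 3 of 6 dendritic cell markers at 0.879, 5 of 6 macrophage markers at 0.547, 2 of 3 NK markers at 0.240, 2 of 4 neutrophil markers at 0.127, 1 of 4 B cell markers at 0.0381 and 1 of 3 gamma-delta T cell markers at 0.0225. None of the 5 melanoma and none of the 3 eosinophil markers was found. Hashtag doublets had been removed by the authors, and no further doublet caller was run, so pairs of cells from the same tumor may remain.

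Early and late genes were held in different amounts by these 30 cells. Each cell held 4 to 178 UMIs of the 19 early members (median 47) and 1 to 200 UMIs of the 24 mitotic members (median 58.5). The early members were in excess in 13 cells and the mitotic members in 17. The 5 cells with Foxp3 and no CD8 UMI had a median of 170 mitotic UMIs and the 21 CD8 cells a median of 49, at median depths of 21378 and 11194 UMIs. Per 10000 UMIs the mitotic sum was 72.2 in the former and 49.95 in the latter, and the early sum was 33.2 and 41.1. With 5 cells in the smaller set these values were not tested.

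**Figure D2:**
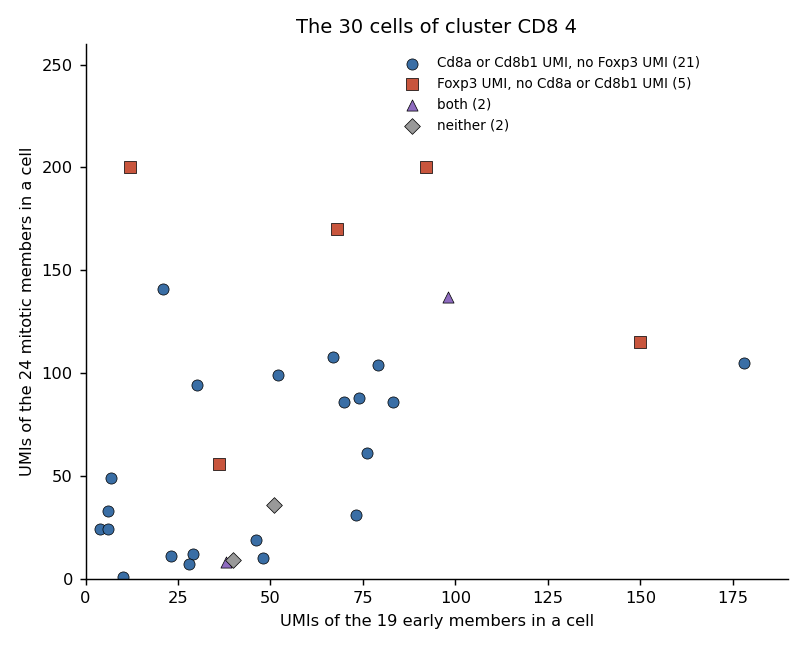
UMIs of the 24 mitotic members (y axis) against UMIs of the 19 early members (x axis) in each of the 30 cells of CD8 4, with the marker showing which cells held a CD8 or a Foxp3 UMI. The cells spread from few UMIs of either set to 178 early and 200 mitotic UMIs, and cells with Foxp3 and no CD8 UMI all hold 56 or more mitotic UMIs.

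Cells with many mitotic members were also found outside CD8 4. A measure chosen after the values were seen, at least 5 distinct mitotic members in a cell, was met by 37 cells in all, of which 26 were in CD8 4 and 10 were control cells of other clusters (3 regulatory T cells, 2 each of CD4, DC 2 and TAM, and 1 of CD8 2). The remaining cell came from clobetasol tumor 5 and lay in DC 2, with 13 distinct mitotic members and 5.76 UMIs of Mki67 per 10000 at 26051 UMIs. In control, 4 of the 30 cells of CD8 4 did not reach the measure.

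The share of cells with a UMI of Mki67 or Top2a depends on how deeply a cell was read, so it was also given with every cell thinned to 2000 UMIs. In the control cells 96.7% of CD8 4 held such a UMI, and 88.2% after thinning. Regulatory T cells came next with 28.4%, or 12.7% thinned (9.25 to 15.1 over 5 tumors). CD8 2 and CD8 3 followed at 8.98% and 8.86% thinned, CD8 1 at 7.30%, Monocytes 3 at 6.96%, CD4 at 6.25% and NK at 5.77%, and the ranges over tumors of these clusters overlapped. DC 2 fell from 25.3% to 4.33% on thinning and TAM from 12.2% to 2.79%, since their median cells held 15930 and 12883 UMIs. Neutrophils, which do not divide in tissue, were taken as a rough background. They read 0.862% thinned (0 to 2.94 over 5 tumors) at a median of 4220.5 UMIs, from 2 of 162 cells. Free RNA, doublets and wrongly assigned cells were not told apart there. DC 1 stood at 0.814% at a median of 15827 UMIs, within the range of neutrophils. Eosinophils held such a UMI in 1.67% of cells at a median of 873.5 UMIs and were mostly too shallow to thin. In all, 570 control and 34 clobetasol cells lay below 2000 UMIs, and 466 and 29 of them were eosinophils.

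**Figure D3:**
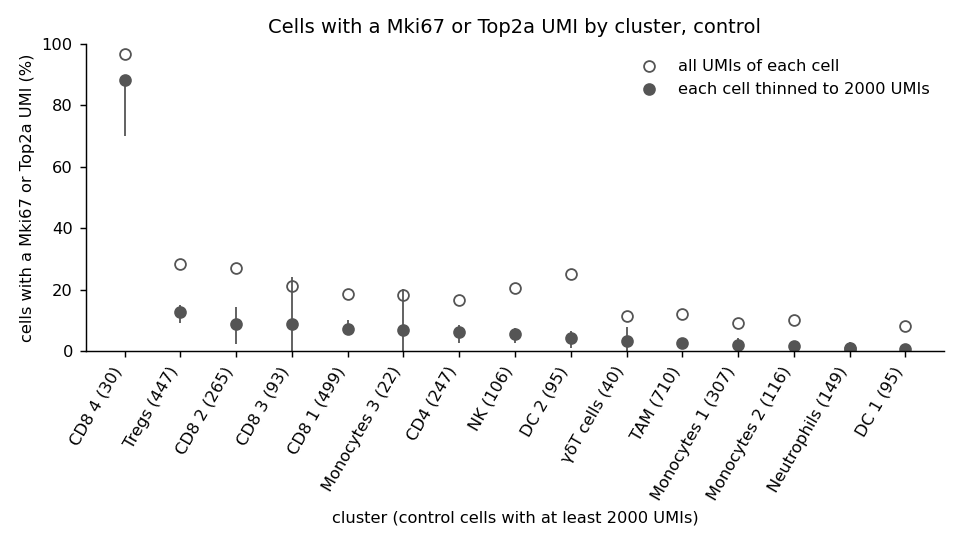
Percent of control cells with a UMI of Mki67 or Top2a by cluster (x axis, with the number of cells of at least 2000 UMIs), for all UMIs of a cell (open points) and with each cell thinned to 2000 UMIs (filled points), with lines for the range over tumors with at least 5 such cells. CD8 4 stands at 88.2% thinned, regulatory T cells at 12.7% and neutrophils at 0.862%, and thinning lowers DC 2 from 25.3 to 4.33% and TAM from 12.2 to 2.79%.

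Control and clobetasol tumors were then compared to ask whether cells in cycle differed with treatment. Over all CD45+ cells the thinned share with a Mki67 or Top2a UMI was 6.40, 6.18, 6.94, 6.52 and 6.08% in control tumors 1 to 5 and 3.97, 1.83, 3.74, 8.77 and 7.19% in clobetasol tumors 1 to 5. The clobetasol tumors lay on either side of the narrow control range. The means were 6.42% ± 0.338 (SD, n = 5) and 5.10% ± 2.82 (SD, n = 5), and the exact two-sided permutation test gave p = 0.373 (adjusted p = 0.426 over 8 tests). For clusters CD8 1 to CD8 4 the means were 10.8% ± 0.982 and 7.46% ± 3.46 (SD, n = 5 each), with an exact permutation p of 0.0714 and an adjusted p of 0.286. Other lymphocytes (9.48% in 5 control and 8.04% in 3 clobetasol tumors) and mononuclear phagocytes (2.55% in 5 and 4.06% in 4) had exact permutation p values of 0.357 and 0.365, both with an adjusted p of 0.426. The highest phagocyte value, 8.09% in clobetasol tumor 5, came from 14 cells.

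The stricter share, cells with at least 3 UMIs of the 24 mitotic members after thinning, separated the groups in the CD8 clusters. In clusters CD8 1 to CD8 4 it was 3.35, 3.33, 3.74, 3.12 and 3.67% in control tumors 1 to 5. In clobetasol tumors 1 to 5 it was 0, 0.179, 0.468, 0.565 and 0.235%, from 6, 12, 36, 9 and 41 cells. Every control tumor, with 87 to 386 cells, was above every clobetasol tumor. CD8 4 was 3.30% of the control cells of these clusters, so each of the 5 clobetasol tumors, also those with 36 and 41 cells, may hold none of it. Whether the separation followed from the few clobetasol cells was not tested. The means were 3.44% ± 0.257 and 0.289% ± 0.227 (SD, n = 5 each), and the exact permutation p was 0.00794, the smallest that 5 against 5 tumors can give. Adjusted over the 8 tests it was 0.0635 and missed the threshold of 0.05. The control value rested on CD8 4: the thinned shares were 83.1% in CD8 4 and 0.858, 0.591 and 0.495% in CD8 1, CD8 2 and CD8 3, and neutrophils read 1.2996%. In clobetasol CD8 1, CD8 2 and CD8 3 read 0.426, 0.260 and 0% over 51, 46 and 7 cells. Neutrophils gave no background for this share, since Kif23, one of the mitotic members counted, stood at 1.09 UMIs per 10000 there. Without thinning the difference turned to 1.90 points higher in clobetasol, whose CD8 cells were deeper, at a median of 9741 UMIs against 6942.5. Before thinning, 129 of 910 control and 26 of 107 clobetasol cells of these clusters held 2 or 3 mitotic UMIs and so lay at the limit.

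For this share the other populations did not separate. Over all CD45+ cells the means were 1.80% ± 0.380 and 1.85% ± 2.21 (SD, n = 5 each, exact permutation p = 1), where clobetasol tumor 1, with 13 cells at this depth, stood at 5.77%. Without that tumor the difference was -0.921 points. Other lymphocytes read 1.76% and 0.773% (exact permutation p = 0.143) and mononuclear phagocytes 0.844% and 2.37% (exact permutation p = 0.127). In the phagocytes clobetasol tumor 5, with 14 cells at this depth and the DC 2 cell of 13 distinct mitotic members among them, stood at 5.37%.

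**Figure D4:**
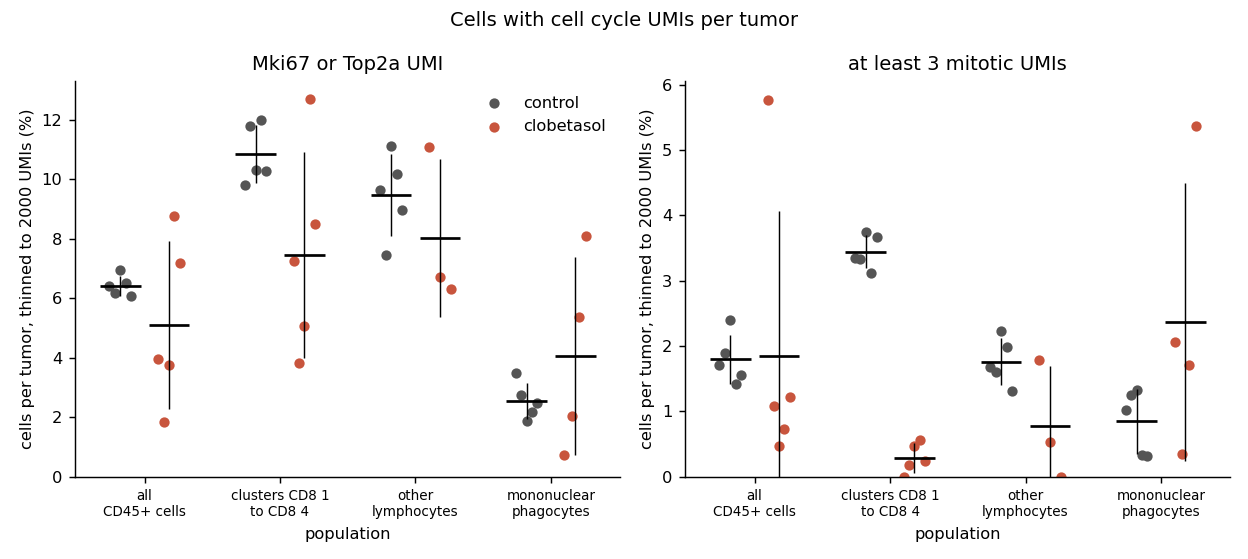
Percent of cells per tumor, thinned to 2000 UMIs, with a Mki67 or Top2a UMI (left) and with at least 3 mitotic UMIs (right) in 4 populations (x axis), where each point is a tumor, bars are means and thin lines 1 SD. In the right panel the control tumors lie between 3.12 and 3.74% in clusters CD8 1 to CD8 4 and the clobetasol tumors between 0 and 0.565%.

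No cell of CD8 4 was found in clobetasol. In control 30 of 910 cells of clusters CD8 1 to CD8 4 were CD8 4 (3.30%, exact 95% binomial interval 2.24 to 4.67%), and in clobetasol 0 of 107. The same kind of interval for 0 of 107 reached 3.39%, which includes the control share. The limit of 3 counts, a one-sided rule not comparable with that interval, gave 2.80%. These limits cover counting error only, and cells of a tumor are not independent. At the control share, the 91 CD8 cells of the 3 clobetasol tumors with at least 10 would hold 3.0 cells of CD8 4. These 91 are a smaller set than the 107 cells above, and the clobetasol sample was small for this question.

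Gene by gene, the levels of the members were compared between tumors with limma on log2(mean UMIs per 10000 + 0.1), fitted on all genes above a mean of 0.2 per 10000, and log2 values below are differences on that scale, clobetasol minus control. Most members were too low for that filter. In a mixed population, fewer cells in cycle and less RNA per cell cannot be told apart. Over all CD45+ cells 7 of 47 members were tested and 0 were called, against 6.15% of all 6471 genes tested in either direction (9.43% with edgeR, which also called 0 members, as did DESeq2). Two-sided p values under 0.05 before adjustment were found for 2 members. Top2a read 0.287, 0.254, 0.384, 0.217 and 0.374 UMIs per 10000 in control tumors 1 to 5 and 0.0226, 0.0526, 0.145, 0.256 and 0.244 in clobetasol tumors 1 to 5. The groups overlapped and the limma difference was -0.83 (SE 0.31, adjusted p = 0.141). Top2a passed the filter of 0.2 through control, since clobetasol tumors 1, 2 and 3 lay below it, so nothing is read from its p value. Dut, also not called, passed it through clobetasol. Hmgb2 went the other way at 0.33 (SE 0.13, limma adjusted p = 0.148). Mki67 was below the filter, with 0.144 to 0.210 in control and 0.0458 to 0.181 in clobetasol.

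The pooled CD8 clusters include CD8 4 in control alone, and it held 87.1% of their control Stmn1 UMIs. In these pooled clusters Stmn1 and Mki67 read lower in clobetasol tumors 2, 3 and 5 than in any control tumor. In clusters CD8 1 to CD8 3 the groups overlapped for both genes. The share of all genes that separate in this way was not counted, so nothing is read from the separation. The Mki67 difference also depended on which clobetasol tumors were used. This comparison of clusters CD8 1 to CD8 4 used 5 control tumors and the 3 clobetasol tumors with at least 10 such cells (tumors 2, 3 and 5), and 13 members were tested. Mki67 and Stmn1 passed the filter on low values through control, where CD8 4 lay, so their test is not independent of that cluster. Clobetasol tumors 1 to 5 held 7, 12, 38, 9 and 41 such cells, few enough that each could hold none of CD8 4. No conclusion on treatment is drawn from the p values of these 2 genes. Mki67 read 0.446, 0.301, 0.401, 0.369 and 0.558 UMIs per 10000 in control tumors 1 to 5 and 0, 0.0230 and 0.113 in clobetasol tumors 2, 3 and 5. The limma difference over these tumors was -1.88 (SE 0.29, adjusted p = 0.00409; edgeR adjusted p = 0.0133), with a limma adjusted p of 0.0132 where no filter on low values was used. Clobetasol tumors 1 and 4, left out for their 7 and 9 cells, read 0.355 and 0.239, and tumor 1 lay within the control range. With both included the difference was -1.28 and the call was lost (limma adjusted p = 0.119, an alternative added after seeing the data). Stmn1, at chr4:134468320-134473843 on the plus strand (mm10), read 0.461, 0.308, 0.461, 0.278 and 0.529 in control and 0, 0.0994 and 0.0713 in clobetasol tumors 2, 3 and 5. Its limma difference was -1.72 (SE 0.29, adjusted p = 0.0068; edgeR adjusted p = 0.0211). Clobetasol tumors 1 and 4 read 0 and 0.130. With both included, the same alternative added after seeing the data, the difference was -1.72 (limma adjusted p = 0.0157). Tumors of 7 and 9 cells may hold no cell of CD8 4, so this repeat is no check of the difference. Limma called 2 members lower, where 3.00% of the 6172 genes tested were, and edgeR called 3, where 2.46% were, the third being Smc2 (edgeR adjusted p = 0.0456, limma adjusted p = 0.673). Nothing is read from these counts, for the filter was passed through control.

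Top2a missed the threshold in the same comparison. It read 0.749, 0.652, 0.738, 0.368 and 0.712 UMIs per 10000 in control tumors and 0.230, 0.248 and 0.394 in clobetasol, where control tumor 4 fell within the clobetasol range, and 0 and 0.417 in clobetasol tumors 1 and 4. The limma difference was -0.92 (SE 0.25, adjusted p = 0.0542; edgeR adjusted p = 0.0868), while DESeq2 gave an adjusted p of 0.00739. Hells, the remodeler of fork chromatin, had a limma difference of -1.06 (SE 0.31, adjusted p = 0.0776). Smc4, Hmgb2 and Rrm1 were not called either, with limma differences of -0.36, -0.35 and -0.46 and adjusted p of 0.133, 0.152 and 0.217. Rrm1, at 0.175, 0.168 and 0.226 in clobetasol tumors 2, 3 and 5, passed the filter of 0.2 through control, where CD8 4 lay, so nothing is read from its p value.

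The Mki67 and Stmn1 differences moved with CD8 4. That cluster held 77.3% of the control Mki67 UMIs of clusters CD8 1 to CD8 4, 87.1% of those of Stmn1, 70.4% of those of Top2a and 92.0% of those of Pclaf. Part of these came from its 5 cells with Foxp3 and no CD8 UMI. Each of the 5 held 14 to 46 of the 337 Mki67 UMIs of CD8 4 and 10 to 49 of its 503 Top2a UMIs. The pooled differences are therefore not ones of CD8 T cells alone. In clusters CD8 1 to CD8 3 alone both genes were below the filter and were not tested. There Mki67 read 0.140, 0.0864, 0.121, 0.255 and 0.144 in control tumors 1 to 5 and 0, 0.0230 and 0.113 in the clobetasol tumors, and Stmn1 read 0.0803, 0.0727, 0.0811, 0.110 and 0.130 against 0, 0.0994 and 0.0713. Both pairs of groups overlapped, and clobetasol tumors 1 and 4, at the Mki67 levels given above, lay above 5 and 4 of the 5 control tumors. Of the 11 members tested in CD8 1 to CD8 3, 0 were called by limma, 0 by edgeR and 0 by DESeq2, against 5.02% (limma) and 6.17% (edgeR) of the 6158 genes tested. Only Hells had an unadjusted p under 0.05, with a limma difference of -0.93 (SE 0.32, adjusted p = 0.119). Top2a was level at 0.307 ± 0.0723 (SD, n = 5) and 0.291 ± 0.0899 (SD, n = 3), a limma difference of -0.066 (SE 0.24, adjusted p = 0.896).

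**Figure D5:**
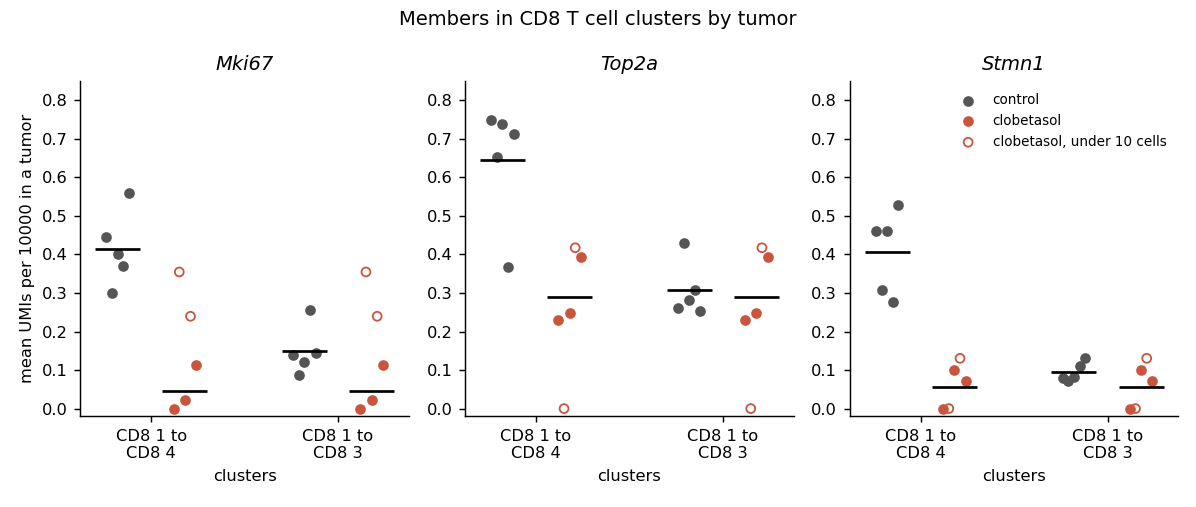
Mean UMIs per 10000 of Mki67, Top2a and Stmn1 per tumor (points, with bars for the group mean over filled points) in clusters CD8 1 to CD8 4 and in clusters CD8 1 to CD8 3, for 5 control tumors, 3 clobetasol tumors (filled) and the 2 clobetasol tumors with under 10 cells (open). With CD8 4 included the Mki67 filled points lie at 0.301 to 0.558 and 0 to 0.113, but the open points at 0.239 and 0.355 make the groups overlap, and without CD8 4 the groups overlap for all 3 genes.

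In tumor-associated macrophages (5 control tumors and the clobetasol tumors 2 and 3) 5 members were tested. Mcm4, a subunit of the MCM helicase at chr16:15623897-15637400 on the minus strand (mm10), read 0.141, 0.261, 0.202, 0.178 and 0.192 UMIs per 10000 in control tumors 1 to 5 and 0.420 and 0.351 in clobetasol tumors 2 and 3. The limma difference was 0.73 (SE 0.21, adjusted p = 0.0301), whereas edgeR gave an adjusted p of 0.233 and DESeq2 0.220. Its control mean of 0.195 was below the filter of 0.2, so Mcm4 was tested only through its clobetasol level, and with no filter the call was lost. Limma called 1 of the 5 members higher, where 6.86% of the 5988 genes tested were, and edgeR called 0, where 6.93% were, and nothing is read from this count. The call also rested on 20 clobetasol UMIs of Mcm4 and was lost without clobetasol tumor 2 or control tumor 1, 3 or 4 (adjusted p of up to 0.0721). The other 4 members, Pcna, Hmgb2, Smc4 and Cenpa, had limma differences of -0.47, -0.41, -0.27 and -0.33 and were not called, with an unadjusted p under 0.05 for Pcna (limma adjusted p = 0.0882). Mki67 and Top2a were below the filter, with 0.0842 to 0.125 and 0.0174 to 0.0652 in control tumors and 0 and 0.0587 for either gene in the clobetasol tumors.

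The comparisons of all CD45+ cells, CD8 1 to CD8 3 and macrophages are not independent, since the first includes the cells of the other 2. Among the genes that drive and brake the cycle, Ccnd3 was higher in the clobetasol tumors in each of these 3 comparisons. A list of 46 such genes had 2 of 21 tested genes called by limma over all CD45+ cells, 1 of 23 in CD8 1 to CD8 3 and 2 of 20 in macrophages, beside 6.15, 5.02 and 21.2% of all genes tested. Ccnd3 is a D-type cyclin that pairs with CDK4 and CDK6 in G1. It read 4.37 ± 0.612 UMIs per 10000 in control and 11.6 ± 2.02 in clobetasol over all CD45+ cells (SD, n = 5 each, limma difference 1.38, SE 0.14, adjusted p = 0.000268). Cell makeup enters that value: CD8 1 to CD8 3 gave 880 of 3803 control and 107 of 305 clobetasol cells, and its part in the difference was not tested. In CD8 1 to CD8 3 Ccnd3 read 7.93 ± 0.889 (n = 5) and 15.99 ± 2.11 (n = 3), a limma difference of 1.00 (SE 0.13, adjusted p = 0.00131). In macrophages it read 1.17 ± 0.480 (n = 5) and 4.51 ± 0.212 (n = 2), a limma difference of 1.95 (SE 0.32, adjusted p = 0.00289), lost without clobetasol tumor 2 (adjusted p = 0.0619). Gadd45b, a stress-induced gene, was higher over all CD45+ cells (limma difference 0.99, SE 0.23, adjusted p = 0.0295), a call lost without clobetasol tumor 5 or without any of control tumors 1 to 4 (limma adjusted p of up to 0.0868). Rb1, the retinoblastoma protein that restrains E2F, was lower in macrophages, at 2.67 ± 0.254 (n = 5) and 1.298 ± 0.336 (n = 2), a limma difference of -1.003 (SE 0.16, adjusted p = 0.00172; edgeR adjusted p = 0.00537).

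Of 75 other genes of S phase and mitosis, 0 of 23 tested were called over all CD45+ cells (2 at an unadjusted limma p under 0.05, 1 called by edgeR), 2 of 26 in CD8 1 to CD8 3 and 2 of 24 in macrophages, beside the same 6.15, 5.02 and 21.2% of all genes. In CD8 1 to CD8 3 both were lower: Tuba1b, an alpha-tubulin with close paralogs between which reads may be split, with a limma difference of -0.70 (SE 0.18, adjusted p = 0.0441), and Racgap1, a regulator of cytokinesis, with -1.27 (SE 0.32, adjusted p = 0.0455; edgeR adjusted p = 0.0898). The Tuba1b call was lost without any one tumor other than clobetasol tumor 2 (limma adjusted p of up to 0.139), and that of Racgap1 without any one control tumor (up to 0.119). With tumors of at least 5 cells both were lost, at limma adjusted p of 0.0554 and 0.554, and Racgap1, at 0.339 in control and 0.0979 in clobetasol, passed the filter through control. In macrophages Nasp, a histone chaperone, was higher (limma difference 1.07, SE 0.23, adjusted p = 0.00847; edgeR adjusted p = 0.00264) and G2e3, a ubiquitin ligase, was lower (-0.78, SE 0.21, adjusted p = 0.0259; edgeR adjusted p = 0.332), a call lost without control tumor 2, 3 or 4. G2e3 also passed the filter through control, at 0.358 there and 0.165 in clobetasol. The members had a median limma difference of 0.011 over all CD45+ cells, -0.12 in CD8 1 to CD8 3 and -0.32 in macrophages, beside -0.11, -0.087 and -0.12 over all genes tested. With edgeR, which rescales the libraries, the median over all genes was 0.0059, 0.010 and -0.0028. The tools differ in their model as well as in scaling, and the balance of calls differed between them: limma called 151 genes higher and 247 lower over all CD45+ cells and edgeR 377 and 233. In CD8 1 to CD8 3 these were 140 and 169 with limma and 240 and 140 with edgeR, and in macrophages 411 and 859 with limma and 415 and 255 with edgeR.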

How the data were processed

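Live CD45+ cells of 10 hashtagged melanomas were measured in 2 expression channels of a 3′ droplet kit. The authors aligned reads to mm10 with introns included (Cell Ranger 7.1.0), assigned hashtags, removed doublets and low quality cells and clustered the cells after integration (Seurat 5.0.3, R 4.3.1). The deposited expression values are the natural log of 1 plus UMIs per 10000. The deposited cell table gives UMI and gene counts and the mitochondrial percent of each cell beside 2 annotation columns, the tumor and the cell type. Whole UMIs were recovered from the values (100% of 10330441 values above 0 within 0.01 of a whole number), and in each of the 4108 cells their sum equaled the UMI count in the cell table. No column was left without a sample. The median mitochondrial share was 1.78% in control and 1.61% in clobetasol cells.

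The tumor was the replicate, named by its hashtag, and p-values measure the spread between tumors of a channel. Cells were averaged per tumor and tested with limma 3.58.1 (trend, robust, R 4.3.3) on log2(mean + 0.1) for genes with a mean of at least 0.2 and tumors with at least 10 cells, adjusted by Benjamini-Hochberg over all genes at 0.05. edgeR 4.0.16 and DESeq2 1.42.0 on summed UMI counts were alternatives, and limma and edgeR were tested on simulated data. Shares used the exact probability of drawing the UMIs among 2000 of a cell, and an exact permutation test over tumors with at least 5 cells. All members were accounted for. Mki67, Top2a, the highest and lowest member of each role in CD8 4, and the members and listed pathway genes past the threshold were named. The members and lists were chosen with earlier results of these data known.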

Additional observations from a re-analysis of the deposited data

Results flagged for a closer look

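Of 57 groups of 4 or 5 tumors tested, 5 held a tumor far from the others by Dixon's ratio, which chance gives in about 1 in 20 groups. Over all CD45+ cells control tumor 2 was the highest for Cenpa at 0.553 UMIs per 10000. In clusters CD8 1 to CD8 3 control tumor 1 was the highest for Smc2 at 0.416. In clusters CD8 1 to CD8 4 control tumor 4 was the lowest for Top2a at 0.368, and control tumor 1 was the lowest for Mcm4 at 0.204. The share of cells with at least 3 mitotic UMIs over all CD45+ cells was highest in clobetasol tumor 1 at 5.77%, from 13 cells.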

How the results depend on the processing

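Of the main counts and shares under their alternatives, 220 kept their direction and side of the threshold or stayed within 1.5 times, 18 moved and 10 reversed, and of the single genes 357 stayed, 41 lost and 9 gained a call and 21 reversed. Where no cause is named, the cause was not tested. No alternative made a share pass after adjustment. The count of members lower in CD8 1 to CD8 3 became 2 with CD8 4 included, and 0 to 1 without each tumor in turn (1 without clobetasol tumor 3, Hells at -1.33, limma adjusted p = 0.0179). In clusters CD8 1 to CD8 4, alternatives that were chosen after seeing the data gave 0 members lower with a mean of at least 0.5 (fewer genes tested), 1 with tumors of at least 5 cells (Mki67 lost at -1.28, limma adjusted p = 0.119), 4 where 20 cells a tumor were required, and 2 to 4 without each tumor in turn. There Mki67 ranged from -2.20 to -1.65 and Stmn1 from -1.93 to -1.43 (limma adjusted p of at most 0.0194 and 0.0307), and Top2a from -1.10 to -0.81 (limma adjusted p of 0.0320 to 0.144). In macrophages the members higher became 0 with no filter, a mean of at least 0.5, edgeR or DESeq2, and 0 to 1 without each tumor in turn. The members lower there became 0 to 2, as Pcna and Hmgb2 were called without clobetasol tumor 2 and Cenpa without clobetasol tumor 3. Over all CD45+ cells 1 member, Aurkb, was lower with no filter. The Mki67 or Top2a share over all CD45+ cells reversed to 1.62 points without thinning. The share with at least 3 mitotic UMIs over all CD45+ cells reversed to -0.384 points at 1000 UMIs, -1.35 at 4000 UMIs, -0.538 with at least 5 mitotic UMIs and -0.606 without Cenpa and Kif23 (added after seeing the data), and ran from -0.921 to 0.405 without each tumor in turn. In CD8 1 to CD8 4 it reversed to 1.90 points without thinning, and in other lymphocytes to 0.00233 without Cenpa and Kif23. Single genes near 0 changed sign over all CD45+ cells (Cenpa -0.067 with edgeR, -0.029 with DESeq2 and -0.046 with tumors of at least 20 cells, -0.046 to 0.31 without each tumor; Pcna -0.023 with at least 20 cells, -0.097 to 0.14 without each tumor). In CD8 1 to CD8 3 Top2a became 0.012 with edgeR, 0.013 with DESeq2 and 0.043 with at least 20 cells (-0.25 to 0.043 without each tumor), Smc4 0.10 with at least 5 cells, and Hmgb2 -0.35 with CD8 4 (-0.053 to 0.083 without each tumor). In macrophages Hmgb2 ran from -0.84 to 0.0074 and Cenpa from -0.98 to 0.34 without each tumor. Ccnd3 ran from 1.76 to 2.10 in macrophages (limma adjusted p of up to 0.0619), Gadd45b from 0.81 to 1.10 over all CD45+ cells (up to 0.0868), Tuba1b from -0.72 to -0.65 (up to 0.139) and Racgap1 from -1.61 to -0.85 (up to 0.119) in CD8 1 to CD8 3, and G2e3 from -0.86 to -0.68 in macrophages (up to 0.0616). Where 1 clobetasol macrophage sample was left, it was assumed to vary like the other tumors. Macrophages could not be fitted with tumors of at least 20 cells. Depth limits the clobetasol values, such as that of Mcm4 in macrophages (20 UMIs), whereas the filter removes members for their low level, which over all CD45+ cells was under it in control as well for most. No paired analysis was possible because the tumor numbers are hashtag names, and a control and a clobetasol tumor of the same number share nothing else.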

Other observations

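Kif23 was found in neutrophils of both groups, at 1.09 UMIs per 10000 in control (0.616 to 1.85 over 5 tumors, 66 UMIs in 162 cells) and 0.208 in clobetasol (0 to 0.324 over 3 tumors, 6 UMIs in 44 cells). The gene was chosen after its values were seen and the difference was not tested. Hmgb2 was high in neutrophils of both groups, at 6.62 (5.44 to 8.28 over 5 tumors) and 7.30 (5.88 to 7.57 over 3 tumors). Cenpa in the DC 2 cluster read 1.52 in control (0.714 to 2.19 over 5 tumors) and 3.56 over 9 clobetasol cells, of which 1 was the cell with 13 distinct mitotic members.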
